A study of Mus musculus with 15 samples.

Results

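The 51 genes described here encode assembly factors of the 60S subunit, the large subunit of the cytosolic ribosome. They were chosen by name from a list of 51 mouse gene symbols. Each symbol matched 1 of the 53380 features counted in every library, which are 53379 mouse gene IDs and the human MYC transgene. All 51 passed the filter on low counts that left 14485 genes to test. Ribosome assembly starts in the nucleolus, where RNA polymerase I makes a long precursor of the ribosomal RNAs. Assembly factors bind that precursor, fold, modify and cut it, recruit ribosomal proteins and leave again, and GTPases, AAA ATPases and DEAD-box RNA helicases supply the energy for these steps. The nearly finished subunit is exported to the cytoplasm, where the last factors come off. Genes of this kind are well known targets of MYC, a transcription factor that promotes cell growth.

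RNA was measured in cells of a T cell leukemia (T-ALL) line that was derived from a tumor of an FVB/N mouse carrying EμSRα-tTA/tet-O-MYC. In these cells the tetracycline transactivator, expressed from the EμSRα promoter, keeps a human MYC transgene on, and doxycycline turns it off. Doxycycline-treated cells were collected at 2, 4, 8 and 24 h and mock-treated cells at 0 h, with 3 libraries of polyadenylated RNA per time and 15 in all. Every group carries the same transgene. Whether the libraries of a time came from separate cultures is not stated in the sources used, and p-values therefore measure only how these samples spread, which may be technical.

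Each library held 25852711 to 27102318 counts. Levels are given as CPM, counts relative to the library total after TMM scaling. The MYC transgene was at 23.4 to 27.1 CPM in the 2 h libraries against 1974 to 2078 CPM at 0 h, so that 1.23% of the 0 h mean was left, and 0.163% was left by 24 h. All 15 T cell markers examined had counts, and they summed to 14829.8 to 16293 CPM at 24 h against 7431 to 7505 CPM at 0 h. B cell markers summed to at most 0.367 CPM and erythroid markers to at most 0.257 CPM in any library. Myeloid markers summed to 23.9 to 29.4 CPM at 24 h against 9.42 to 11.6 CPM at 0 h, with Lyz2 and Cd14 at 0. Itgam averaged 20.6 CPM at 24 h against 2.58 CPM at 0 h and carried the higher sum. Csf1r averaged 5.82 CPM at 24 h against 8.15 CPM at 0 h, and Mpo 0.123 CPM at 24 h against 0.0132 CPM at 0 h. Stromal and epithelial markers summed to 117 to 139 CPM at 24 h against 55.4 to 58.5 CPM at 0 h, nearly all of it Pecam1, with Epcam at 0. Col1a1 and Col1a2 averaged at most 0.380 CPM at 0 h and 24 h. The part of these markers in the falls described here was not tested. In bulk RNA, fewer cells of a kind and less RNA per cell cannot be told apart, and levels per cell were not measured. Replicate 3 at 24 h stood apart. Its counts differed from those of the other 24 h libraries by chi-square values of 77.7 and 85.4 per degree of freedom, against 2.81 to 16.5 for all other pairs of one time. It was the lowest of the 24 h libraries for 37 of the 51 factors and the highest for 13.

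After MYC was turned off, the mRNAs of the 60S assembly factors fell together, most of them within 4 h. Their median level was 66.8, 68.0 and 68.8% of the 0 h mean in the 2 h libraries and 34.9, 37.4 and 37.5% in those of 4 h. In the 8 h libraries it was 26.9, 26.8 and 27.9% and in the 24 h libraries 24.9, 25.4 and 21.7%. Libraries of different times did not overlap in this median, though the gap between those of 24 h and 8 h was smaller than the range of the 24 h libraries. Over all tested genes the median stayed between 99.7% and 105%. In TPM, a level that takes gene length into account, the factors had a median of 104 TPM at 0 h, against 13.7 TPM over the tested genes. Wdr74 had the lowest mean at 0 h, 4.65 TPM, and Npm1 the highest, 6035 TPM. The 51 mRNAs together made up 3238 TPM at 24 h against 13869 TPM at 0 h.

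**Figure D1:**
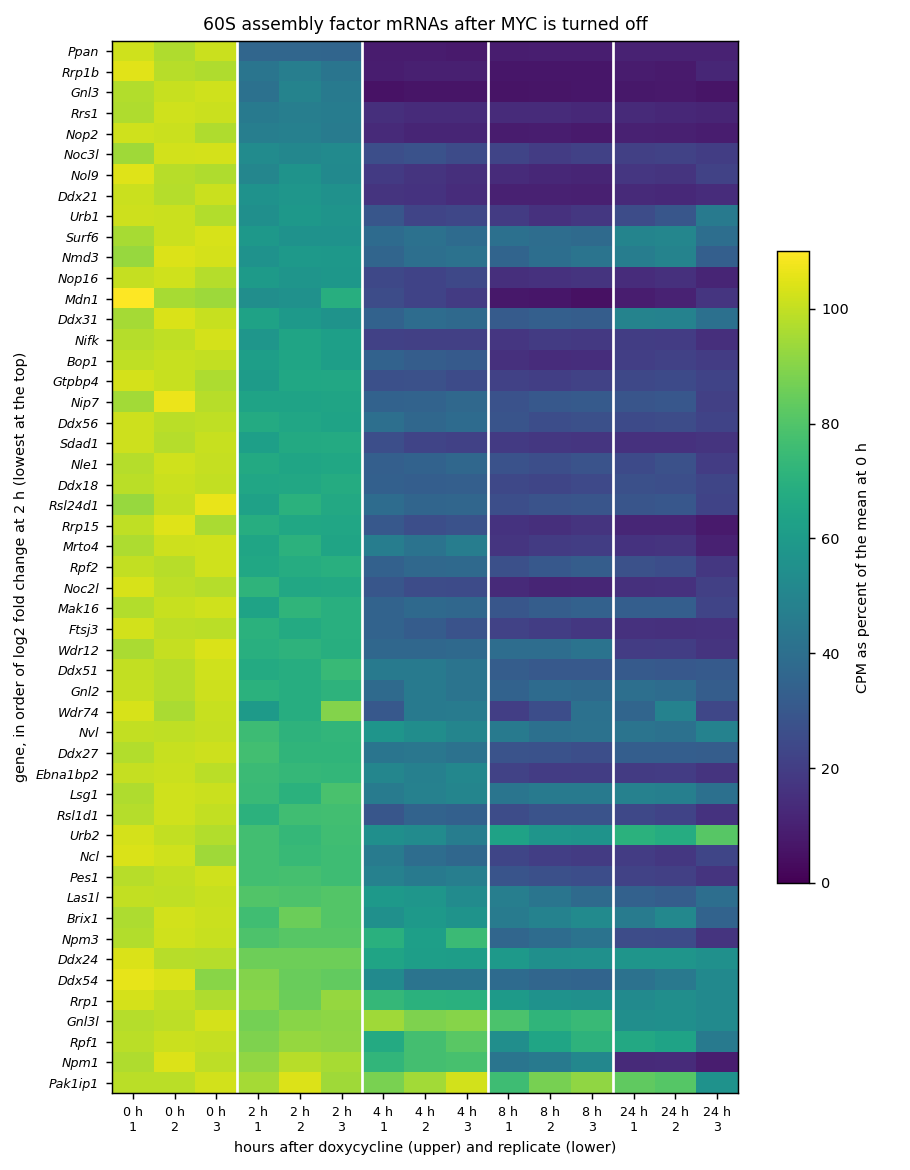
CPM of each factor (rows, in order of the log2 fold change at 2 h, lowest at the top) in each of the 15 libraries (columns, by hours after doxycycline and replicate), as a percent of the gene's mean at 0 h (color scale). Ppan, Rrp1b, Gnl3, Rrs1 and Nop2 at the top are darkest in the 2 h columns, and Npm1 near the bottom stays light up to 4 h and is dark at 24 h.

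Genes were called by edgeR's quasi-likelihood test at a Benjamini-Hochberg adjusted p under 0.01 over all tested genes. Of the 51 factors, 40 were lower at 2 h than at 0 h, when 8.59% of all tested genes were. At 4 h 47 were lower (19.9% of all), at 8 h 50 (25.1%) and at 24 h 51 (28.1%). None was higher at any of these times, when 6.60%, 18.1%, 25.3% and 30.7% of all tested genes were. Their median log2 fold changes against 0 h were -0.57, -1.43, -1.87 and -2.08 in this order of times, beside 0.0055, 0.077, 0.085 and 0.075 over all tested genes. The step from 2 h to 4 h had the largest median of the 4 steps: 45 of the 51 fell and none rose (median -0.89), when 13.0% of all genes fell and 7.72% rose. From 4 h to 8 h 27 fell and none rose (median -0.35), when 6.97% of all genes fell and 5.73% rose. All 3 libraries lay below all 3 of 0 h for 49 factors at 2 h, against 26.8% of all tested genes. This held for 50 factors at 4 h (30.2% of all), 51 at 8 h (34.1%) and 51 at 24 h (33.1%).

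Without 24 h replicate 3, 44 factors were lower by 2 h (14.8% of all tested genes), 49 by 4 h (24.8%), 51 by 8 h (29.6%) and 51 by 24 h (30.7%). The 24 h median in that fit was -1.97. Scaling to library totals in place of TMM moved the median of all tested genes at 24 h to 0.35 and that of the factors to -1.81. With that scaling 49 of the 51 were called lower at 24 h and none higher, beside 19.7% of all tested genes lower and 43.9% higher. Urb2 (log2 fold change -0.17, adjusted p = 0.0960) and Pak1ip1 (-0.17, adjusted p = 0.163) did not pass.

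**Figure D2:**
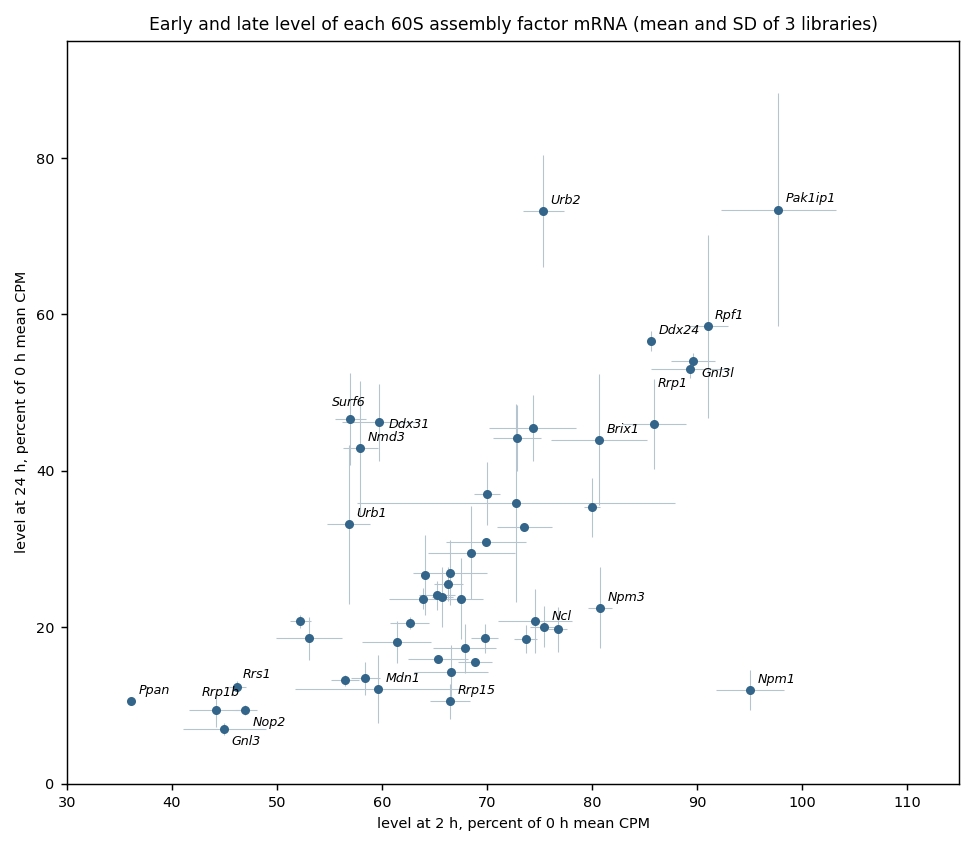
Mean level of each factor at 24 h (vertical axis) against that at 2 h (horizontal axis), both as a percent of its mean CPM at 0 h. Points are the 51 genes and bars the SD of 3 libraries. Ppan, Gnl3, Rrp1b, Rrs1 and Nop2 lie at the lower left, Npm1 alone at the lower right and Pak1ip1 at the upper right.

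Ranked by the log2 fold change at 2 h, the order began with Ppan, Rrp1b, Gnl3, Rrs1 and Nop2. These were the 5 factors at or under 50% of their 0 h level at 2 h, as 1.67% of all tested genes were. Ppan encodes the relative of yeast Ssf1, a protein of early pre-60S particles, and lies at chr9:20888175-20892178 (GRCm38, + strand). It measured 160.5, 152 and 159 CPM in the 0 h libraries, 56.9, 56.8 and 56.6 CPM in those of 2 h and 13.1, 12.9 and 12.6 CPM in those of 4 h. Later, the 8 h libraries held 14.1, 14.6 and 14.5 CPM and the 24 h libraries 16.6, 16.5 and 16.4 CPM. The 2 h libraries held 36.2, 36.1 and 36.0% of the 0 h mean, far below every 0 h library (log2 fold change -1.47 ± 0.053, adjusted p = 1.53e-10; here and below, ± after a log2 fold change is its standard error). The lowest mean came at 4 h, 8.17% ± 0.164 (SD, n = 3) of 0 h.

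Gnl3 encodes nucleostemin, a nucleolar GTPase of proliferating cells, and lies at chr14:31012433-31019152 (− strand). Its counts gave 411, 426 and 431 CPM in the 0 h libraries, 174, 207 and 189 CPM in those of 2 h and 22.3, 25.8 and 25.5 CPM in those of 4 h. Thereafter, the 8 h libraries held 25.2, 26.5 and 27.5 CPM and the 24 h libraries 30.9, 32.1 and 25.6 CPM. No other factor fell lower: its 4 h mean was 5.81% ± 0.460 (SD, n = 3) of 0 h. The fall between 2 h and 4 h was also the largest of the 51 (log2 fold change -2.95 ± 0.094, adjusted p = 1.63e-11). Pbrm1 overlaps the gene on the other strand and snoRNA genes lie within it on its own strand.

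Rrp1b, a nucleolar protein related to yeast Rrp1, stood at 114, 106 and 105 CPM in the 0 h libraries, 46.4, 51.2 and 46.3 CPM in those of 2 h and 9.45, 10.4 and 10.7 CPM in those of 4 h. Further on, the 8 h libraries held 7.04, 7.31 and 7.40 CPM and the 24 h libraries 9.17, 8.48 and 12.8 CPM. After Ppan it had the largest fall at 2 h (log2 fold change -1.18 ± 0.11, adjusted p = 1.58e-06), and its 8 h mean was 6.68% ± 0.174 of 0 h. Rrs1 forms, in yeast, a complex with Rpf2 that brings the 5S ribonucleoprotein into the pre-60S. It measured 180.4, 189.7 and 188 CPM in the 0 h libraries, 84.8, 87.8 and 85.7 CPM in those of 2 h and 27.3, 25.0 and 25.3 CPM in those of 4 h. Later, the 8 h libraries held 25.3, 25.3 and 23.8 CPM and the 24 h libraries 24.4, 23.1 and 21.2 CPM. All of its libraries from 4 h on lay between 11.4% and 14.7% of 0 h, and the test of 2 h gave a log2 fold change of -1.11 ± 0.063, adjusted p = 1.85e-08.

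Nop2, a methyltransferase that modifies cytosine in the large-subunit ribosomal RNA, measured 264, 261 and 250.3 CPM in the 0 h libraries, 121, 124 and 118 CPM in those of 2 h and 33.5, 29.2 and 29.4 CPM in those of 4 h. Thereafter, the 8 h libraries held 21.3, 22.5 and 19.97 CPM and the 24 h libraries 25.8, 24.9 and 22.6 CPM. Its libraries of each later time lay below every 0 h library (for 2 h, log2 fold change -1.09 ± 0.070, adjusted p = 5.76e-08). The lowest mean was 8.23% ± 0.489 (SD, n = 3) of 0 h and came at 8 h.

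MYC is known to bind E-boxes near start sites, and the stretch around the start was therefore looked up in RefSeq's table (GRCm38.p6, 250 bases before to 50 after the start), which held 43 of the 51 factors. The promoters of Ppan, Rrp1b and Gnl3, which fell fastest, are shown 5′ to 3′. Capitals mark a match to the E-box variant CACGCG, which here reads on the other strand, in Ppan. Neither CACGTG nor CACGCG was found on either strand in the promoters of Rrp1b and Gnl3 shown. Where the table lists several promoters of a gene, only the first was searched, and Rrp1b has 2.
Ppan (chr9:20887925-20888224, + strand): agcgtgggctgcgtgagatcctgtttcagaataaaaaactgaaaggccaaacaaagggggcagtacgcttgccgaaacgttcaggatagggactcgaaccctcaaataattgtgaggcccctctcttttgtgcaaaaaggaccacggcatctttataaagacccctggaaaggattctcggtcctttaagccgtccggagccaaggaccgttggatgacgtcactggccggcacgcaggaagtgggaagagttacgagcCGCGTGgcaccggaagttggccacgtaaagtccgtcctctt
Rrp1b (chr17:32035912-32036211, + strand): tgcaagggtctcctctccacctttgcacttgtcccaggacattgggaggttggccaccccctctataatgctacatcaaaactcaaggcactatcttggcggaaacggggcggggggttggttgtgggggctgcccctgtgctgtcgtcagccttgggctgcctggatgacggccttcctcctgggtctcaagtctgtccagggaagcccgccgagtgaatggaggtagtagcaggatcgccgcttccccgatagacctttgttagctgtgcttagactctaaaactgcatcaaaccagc
Gnl3 (chr14:31019082-31019381, − strand): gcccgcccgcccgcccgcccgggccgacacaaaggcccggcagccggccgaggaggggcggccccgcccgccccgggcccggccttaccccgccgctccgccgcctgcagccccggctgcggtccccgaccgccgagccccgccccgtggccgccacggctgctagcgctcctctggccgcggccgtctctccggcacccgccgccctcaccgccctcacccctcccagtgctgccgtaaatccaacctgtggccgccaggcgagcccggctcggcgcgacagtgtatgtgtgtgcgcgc

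The canonical E-box CACGTG, which reads the same on both strands, lay in 7 of the 43 promoters (16.3%). It lay in 10.2% of 9557 tested genes and 7.24% of 27025 genes in the table. The 7 matches are shown with the bases around them, the motif in capitals, in the order of the log2 fold change at 2 h. The motif begins 60 bases before the start in Nop2 and 114 bases before it in Nmd3, and lies within the first 50 transcribed bases in the others.
Nop2 (chr6:125131811-125131840, + strand): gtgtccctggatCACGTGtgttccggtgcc
Nmd3 (chr3:69721929-69721958, + strand): cgccccttgctaCACGTGtattctttgacc
Mdn1 (chr4:32657145-32657168, + strand): gaattccttcacCACGTGtgtgtc
Sdad1 (chr5:92309986-92310015, − strand): agcggcgtgtccCACGTGccgtttccggtt
Nle1 (chr11:82908355-82908384, − strand): tcggttctcctcCACGTGgggacgcaggat
Rpf2 (chr10:40246990-40247017, − strand): aagtaatcggtaCACGTGcattcgctaa
Pes1 (chr11:3963965-3963994, + strand): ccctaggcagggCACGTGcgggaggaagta

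The 7 factors with this motif had median levels of 65.4% of 0 h by 2 h, 34.9% by 4 h, 27.1% by 8 h and 19.7% by 24 h. The 36 without it had 67.2%, 37.1%, 27.1% and 23.9%. The looser pattern CANGTG, searched on both strands and holding CACGTG among its matches, lay in 19 of the 43 (44.2%, against 40.0% of tested genes and 44.8% of all). CACGCG, searched on either strand after the data had been seen, lay in 17 (39.5%, against 17.9% and 9.36%). A match describes these letters and is not a measured binding site. Promoters of Rrs1, of the least changed factors Pak1ip1 and Rpf1, and of Bop1, Gnl2, Gnl3l, Mak16 and Npm1 were not in the table. They were therefore not searched.

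By depth, the lowest mean over the later times, the order began with Gnl3 (5.81% of 0 h), Mdn1 (6.19%), Rrp1b (6.68%), Ppan (8.17%) and Nop2 (8.23%). Of the 51 factors, 5 first reached 50% of 0 h or less by 2 h, 35 by 4 h and 5 by 8 h, and 6 never reached it. The means of 40 factors were at or under 50% by 4 h, those of 45 by 8 h and those of 45 by 24 h, as were 7.88%, 10.8% and 13.1% of all tested genes. The lowest mean was that of 4 h for 4 factors, that of 8 h for 19 and that of 24 h for 28. This split depends on the scale: with deposited TPM it was 35 at 8 h and 10 at 24 h, and with CPM on library totals 30 and 15.

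Pak1ip1, the relative of yeast Mak11, changed least. It stood at 98.6, 98.8 and 103% of the 0 h mean in the 0 h libraries, 95.05, 104 and 94.2% in those of 2 h and 87.9, 94.9 and 102% in those of 4 h. It held 76.0, 87.5 and 91.9% in the 8 h libraries and 83.0, 81.0 and 56.2% in those of 24 h. The 2 h and 4 h libraries overlapped those of 0 h and neither time passed the test (adjusted p = 0.884 and 0.626). The 24 h libraries lay below the 0 h libraries (log2 fold change -0.45 ± 0.12, adjusted p = 0.00360), with replicate 3 the lowest. Without that replicate the log2 fold change was -0.29 (adjusted p = 0.00204), and without 0 h replicate 3 the call was lost (adjusted p = 0.0128). The others that never reached 50% were Rpf1 (lowest mean 58.5% of 0 h), Ddx24 (56.6%), Gnl3l (54.0%), Rrp1 (53.0%) and Urb2 (51.5%).

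Speed and depth did not always go together. Npm1, which encodes nucleophosmin, an abundant nucleolar chaperone, had rank 50 of 51 by speed and rank 8 by depth. It measured 5929, 6389.9 and 6078 CPM in the 0 h libraries, 5614, 6009 and 5867 CPM in those of 2 h and 4441, 4728 and 4795 CPM in those of 4 h. Further on, the 8 h libraries held 2612, 2782 and 3115 CPM and the 24 h libraries 816, 828 and 549 CPM. Its 2 h libraries overlapped those of 0 h (adjusted p = 0.734) and the 4 h level missed the threshold (log2 fold change -0.40, adjusted p = 0.0137). It passed at 4 h without 24 h replicate 2 or 3 (adjusted p = 0.00947 and 7.38e-06). DESeq2 also called it at 4 h (adjusted p = 0.00191). So did edgeR with RLE, without the low-count filter and with only the compared times fitted (adjusted p = 0.00840, 3.30e-04 and 3.21e-05). By 24 h the mean was 11.9% ± 2.57 (SD, n = 3) of 0 h (log2 fold change -3.07 ± 0.13, adjusted p = 1.49e-11). Surf6 and Nmd3 went the other way: they were at 57.0% and 57.9% of 0 h at 2 h and still at 46.6% and 42.9% at 24 h.

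**Figure D3:**
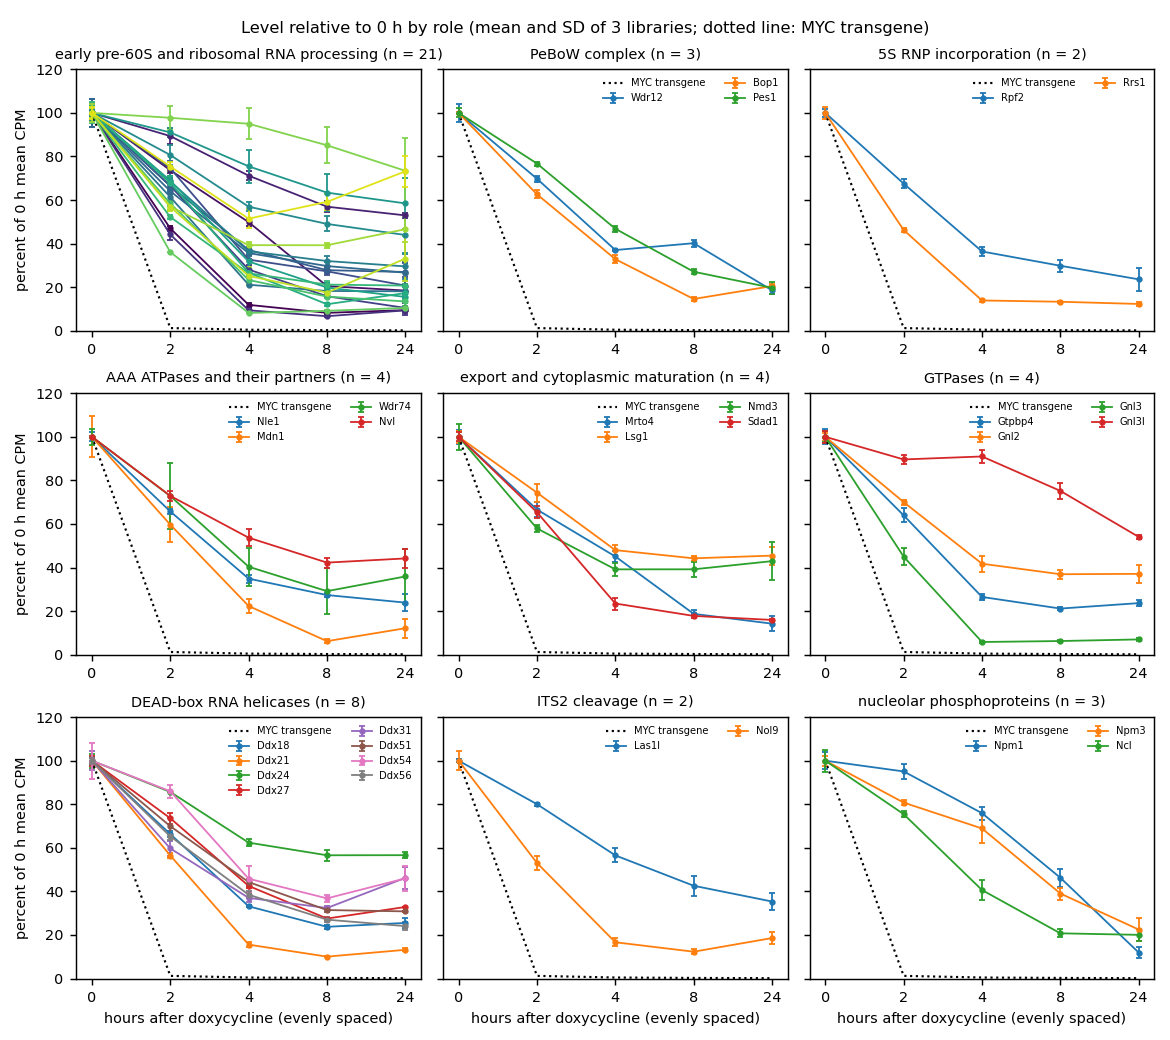
Mean level (vertical axes, percent of the 0 h mean CPM, with bars for the SD of 3 libraries) against hours after doxycycline (horizontal axes, evenly spaced) for the 9 role groups, 1 line a gene. The 21 lines of the first panel are not named, and the dotted line is the MYC transgene. Gnl3l and Npm1, first called lower at 8 h by edgeR with TMM over all 15 libraries, lie above the other genes of their panels at 4 h.

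The PeBoW complex, made of Pes1, Bop1 and Wdr12, is needed to process the large-subunit part of the precursor. Its 3 mRNAs were called lower than at 0 h at each later time, when 8.59%, 19.9%, 25.1% and 28.1% of all tested genes were. Here and in the groups that follow, differences between factors are given as values and were not tested, apart from the ratios of related genes. Bop1 stood at 99.4, 101 and 99.9% of the 0 h mean in the 0 h libraries, 61.6, 64.8 and 61.5% in those of 2 h and 34.7, 32.6 and 31.3% in those of 4 h. From then on its levels were 15.4, 13.9 and 14.4% in the 8 h libraries and 20.6, 21.2 and 19.7% in those of 24 h. Its lowest libraries were those of 8 h, and the 24 h libraries lay above them (log2 fold change 0.49 ± 0.063, adjusted p = 1.58e-05). Wdr12 stood at 95.9, 100.3 and 104% of the 0 h mean in the 0 h libraries, 69.2, 71.3 and 68.8% in those of 2 h and 36.7, 36.9 and 37.5% in those of 4 h. Later levels were 39.2, 39.2 and 42.1% in the 8 h libraries and 19.3, 19.8 and 16.5% in those of 24 h. No change was called between 4 h and 8 h (adjusted p = 0.247), and a further fall came after that (log2 fold change -1.11 ± 0.070, adjusted p = 1.15e-08). Pes1 had means of 76.8% by 2 h, 46.8% by 4 h, 27.1% by 8 h and 19.7% by 24 h, with a call in every step. Its call at 2 h (adjusted p = 0.00311) was lost when any single library of 0 h or 2 h was left out (adjusted p at most 0.0223). Each of the 3 genes overlaps a gene on the other strand.

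Among the 21 early factors of the pre-60S and of ribosomal RNA processing, 16 were lower by 2 h (8.59% of all tested genes). At 4 h 19 were (19.9%), at 8 h 20 (25.1%) and at 24 h 21 (28.1%). Their median levels were 66.5% by 2 h, 32.7% by 4 h, 21.2% by 8 h and 20.7% by 24 h. In yeast the relatives of Ppan, Surf6 and Rrp15 bind together in the early particle, as do those of Mak16 and Rpf1. Rrp15 stood at 99.6, 104 and 96.0% of the 0 h mean in the 0 h libraries, 68.7, 65.5 and 65.3% in those of 2 h and 30.3, 26.4 and 27.6% in those of 4 h. There was 16.1, 14.8 and 16.6% left in the 8 h libraries and 11.9, 11.6 and 7.95% in those of 24 h, so that its 24 h libraries lay below those of every other time. Mak16 had means of 68.5% by 2 h, 36.5% by 4 h, 32.0% by 8 h and 29.5% by 24 h, whereas its partner Rpf1 had 91.0% by 2 h, 75.5% by 4 h, 63.4% by 8 h and 58.5% by 24 h. The spread of Rpf1 was wide at the last 3 times (SD 7.45, 8.58 and 11.7 percentage points, n = 3 each). It was not called at 2 h or 4 h (adjusted p = 0.488 and 0.0133) and was at 24 h (log2 fold change -0.77 ± 0.13, adjusted p = 5.17e-05). It was called at 4 h without 8 h replicate 1 or 3 (adjusted p = 0.00691 and 0.00877) and without 24 h replicate 1 or 3 (adjusted p = 0.00935 and 8.64e-05).

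Noc2l and Noc3l are relatives of yeast Noc2 and Noc3, which pair with each other during assembly and transport of the particle. Noc3l was at 52.2% ± 0.995 of 0 h at 2 h and Noc2l at 67.9% ± 3.01, whereas at 8 h Noc3l was at 21.2% ± 1.60 and Noc2l at 12.2% ± 0.767 (SD, n = 3 each). Urb1 and Urb2, whose yeast relatives sit in one early complex with the helicase Dbp6, differed in course. Urb1 stood at 101, 101 and 97.4% of the 0 h mean in the 0 h libraries, 54.7, 58.7 and 57.1% in those of 2 h and 29.6, 22.7 and 23.3% in those of 4 h. It held 18.9, 15.8 and 17.9% in the 8 h libraries and 25.4, 29.3 and 44.7% in those of 24 h. Urb2 stood at 103, 100.1 and 97.2% of the 0 h mean in the 0 h libraries, 76.8, 73.2 and 76.1% in those of 2 h and 54.8, 53.0 and 46.6% in those of 4 h. From then on its levels were 63.5, 57.5 and 56.6% in the 8 h libraries and 70.0, 68.2 and 81.4% in those of 24 h. It was thus lowest at 4 h, and its 24 h libraries lay above those of 4 h and 8 h. Ebna1bp2 and Brix1, relatives of yeast Ebp2 and Brx1, had means of 73.7% by 2 h, 49.9% by 4 h, 20.5% by 8 h and 18.5% by 24 h in the case of Ebna1bp2 and of 80.7% by 2 h, 57.0% by 4 h, 49.0% by 8 h and 44.0% by 24 h in that of Brix1. The step of Ebna1bp2 between 4 h and 8 h was the larger one (log2 fold change -1.28 ± 0.072, adjusted p = 1.30e-08, against -0.56 between 2 h and 4 h).

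Of the other early factors, Nop16 had means of 58.4% by 2 h, 23.3% by 4 h, 15.7% by 8 h and 13.5% by 24 h. Nifk, a partner of a nuclear proliferation marker, had 61.4% by 2 h, 21.1% by 4 h, 18.2% by 8 h and 18.1% by 24 h, and Ftsj3, the relative of the yeast ribosomal RNA methyltransferase Spb1, had 68.9% by 2 h, 31.8% by 4 h, 19.8% by 8 h and 15.5% by 24 h. Rsl1d1, which holds a ribosomal L1 domain, ended at 20.7% of 0 h and Rsl24d1, the relative of yeast Rlp24, at 27.0%. In Nip7 and Mak16 the 24 h libraries held 29.1, 30.1 and 20.8% and 32.9, 33.0 and 22.7% of 0 h, with replicate 3 the lowest.

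The 5S ribonucleoprotein pair Rpf2 and Rrs1 stood at different levels. At 4 h Rpf2 was at 36.4% ± 1.97 of 0 h and Rrs1 at 13.9% ± 0.680 (SD, n = 3 each). Rpf2 was lower at 2 h than at 0 h (log2 fold change -0.57 ± 0.12, adjusted p = 0.00219), a call lost without 0 h replicate 3 and without each 2 h library (adjusted p at most 0.0133).

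The 8 DEAD-box RNA helicases unwind or rearrange RNA and eject what is bound to it. Their median levels were 68.1% by 2 h, 40.5% by 4 h, 29.5% by 8 h and 31.8% by 24 h. At 2 h 7 were lower, when 8.59% of all tested genes were. All 8 were lower from 4 h on (19.9%, 25.1% and 28.1% of all at 4, 8 and 24 h). Ddx21, a nucleolar helicase, fell lowest. It measured 518, 501 and 519.7 CPM in the 0 h libraries, 287, 298 and 285 CPM in those of 2 h and 84.1, 83.5 and 72.2 CPM in those of 4 h. Later, the 8 h libraries held 52.8, 52.1 and 49.9 CPM and the 24 h libraries 66.2, 65.0 and 71.9 CPM. Each of its later libraries lay below the 0 h libraries (for 24 h, log2 fold change -2.92 ± 0.071, adjusted p = 4.95e-14). Ddx24, the relative of yeast Mak5, changed least. It stood at 104, 98.4 and 97.8% of the 0 h mean in the 0 h libraries, 85.6, 85.7 and 85.6% in those of 2 h and 64.3, 61.7 and 61.2% in those of 4 h. Later levels were 59.5, 55.0 and 55.3% in the 8 h libraries and 57.3, 57.5 and 55.1% in those of 24 h. The spread between its libraries was small, and its fall at 24 h was clear of it (log2 fold change -0.82 ± 0.055, adjusted p = 2.62e-09). The call at 2 h (adjusted p = 0.00686) was lost in 11 of 15 fits with 1 library left out (adjusted p at most 0.0440). Ddx18, Ddx27, Ddx51 and Ddx56, relatives of yeast Has1, Drs1, Dbp6 and Dbp9, ended at 25.5%, 32.8%, 30.8% and 24.1% of 0 h. Ddx31 and Ddx54, relatives of yeast Dbp7 and Dbp10, ended at 46.2% and 46.0%.

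The GTPases act as checkpoints of the particle. Gtpbp4, the relative of yeast Nog1, had means of 63.9% by 2 h, 26.5% by 4 h, 21.2% by 8 h and 23.7% by 24 h, and Gnl2, that of yeast Nog2, of 70.0% by 2 h, 41.7% by 4 h, 36.9% by 8 h and 37.1% by 24 h. Both were called lower at 2, 4, 8 and 24 h, as was Gnl3, when 8.59%, 19.9%, 25.1% and 28.1% of all tested genes were. Gnl3l, a relative of Gnl3 on the X chromosome, stood at 97.9, 99.1 and 103% of the 0 h mean in the 0 h libraries, 87.2, 90.4 and 91.2% in those of 2 h and 94.2, 88.7 and 89.9% in those of 4 h. There was 78.9, 71.9 and 74.7% left in the 8 h libraries and 54.4, 54.9 and 52.8% in those of 24 h. Its 2 h and 4 h libraries lay just under those of 0 h, and it passed the test first at 8 h (log2 fold change -0.41 ± 0.056, adjusted p = 1.09e-05). This depends on the fit. DESeq2 called Gnl3l lower already at 2 h and 4 h (adjusted p = 5.00e-04 and 0.00210). So did edgeR with only the compared times fitted (adjusted p = 0.00259 and 0.00958).

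AAA ATPases pull factors off the particle. Mdn1, the very large ATPase called midasin, lies at chr4:32657119-32775217 (+ strand) and measured 141, 122 and 119.6 CPM in the 0 h libraries, 69.6, 71.1 and 87.7 CPM in those of 2 h and 32.7, 28.2 and 24.5 CPM in those of 4 h. Thereafter, the 8 h libraries held 8.80, 8.36 and 6.52 CPM and the 24 h libraries 11.1, 13.6 and 21.7 CPM. Its 8 h libraries, 6.90, 6.55 and 5.11% of the 0 h mean, lay below those of every other time (log2 fold change -1.85 ± 0.20, adjusted p = 1.17e-05, for 8 h against 4 h). The call at 2 h (adjusted p = 0.00638) was lost without each 0 h library and without 2 h replicate 1 and 2 (adjusted p at most 0.0340). Nle1, whose yeast relative Rsa4 is what the yeast midasin pulls on, had means of 65.7% by 2 h, 34.9% by 4 h, 27.4% by 8 h and 23.9% by 24 h. Nvl, an AAA ATPase of the nucleolus, had 72.9% by 2 h, 53.7% by 4 h, 42.3% by 8 h and 44.2% by 24 h. Its partner Wdr74 had only 12 to 57 counts a library, and its level of 72.8% ± 15.2 at 2 h could not be told from 0 h at this depth (adjusted p = 0.220).

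Las1l, the endonuclease that cuts internal transcribed spacer 2, and Nol9, the polynucleotide kinase that works with it, stood at different levels from 2 h on. Nol9 stood at 105, 98.4 and 96.8% of the 0 h mean in the 0 h libraries, 50.5, 56.6 and 52.1% in those of 2 h and 18.5, 16.6 and 14.9% in those of 4 h. It held 13.4, 12.1 and 11.4% in the 8 h libraries and 17.4, 16.6 and 21.7% in those of 24 h. It was already lower at 2 h (log2 fold change -0.91 ± 0.10, adjusted p = 8.20e-06). Las1l, also on the X chromosome, stood at 99.7, 99.6 and 101% of the 0 h mean in the 0 h libraries, 80.2, 79.2 and 80.7% in those of 2 h and 59.1, 57.7 and 52.9% in those of 4 h. From then on its levels were 47.1, 42.7 and 37.9% in the 8 h libraries and 34.1, 32.4 and 39.6% in those of 24 h. It just missed the test at 2 h (adjusted p = 0.0109) and was lower from 4 h on. Its 2 h call was made without 8 h replicate 1 or 3 and without 24 h replicate 2 or 3 (adjusted p down to 4.92e-04).

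Of the factors of export and cytoplasmic maturation, Sdad1, the relative of yeast Sda1, ended at 15.9% of 0 h. Mrto4, whose yeast relative Mrt4 holds the place of a stalk protein, held 45.1% at 4 h and 18.7% at 8 h (log2 fold change -1.27 ± 0.13, adjusted p = 6.63e-06). The export adapter Nmd3 and the GTPase Lsg1, which releases it in the cytoplasm, ended at 42.9% and 45.5%. Neither passed the test for a further fall after 4 h (for 8 h against 4 h, adjusted p = 0.998 and 0.281).

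The nucleolar phosphoproteins Npm1 and Ncl, which encodes nucleolin, were the most abundant of the 51 at 0 h per length, with 6035 TPM and 786 TPM. With Npm3 they were the slowest group by median level up to 8 h. The medians were 80.8% by 2 h, 68.9% by 4 h, 39.0% by 8 h and 20.1% by 24 h. Up to 8 h these were the values of Npm3, and Ncl lay below them. At 2 h 8.59% of all tested genes were called lower, and 1 of the 3 was. That was Ncl, which stood at 104, 102 and 94.3% of the 0 h mean in the 0 h libraries, 76.7, 74.0 and 75.7% in those of 2 h and 45.8, 39.2 and 36.9% in those of 4 h. Later levels were 22.8, 20.2 and 19.2% in the 8 h libraries and 19.6, 17.7 and 22.9% in those of 24 h. Its 2 h call (adjusted p = 0.00762) was lost in 8 of 15 fits with 1 library left out (adjusted p at most 0.0341), while its 24 h libraries lay far below 0 h (log2 fold change -2.32 ± 0.11, adjusted p = 2.67e-11). Npm3, a smaller relative of Npm1, stood at 97.5, 102 and 101% of the 0 h mean in the 0 h libraries, 79.4, 81.6 and 81.3% in those of 2 h and 69.7, 62.0 and 75.0% in those of 4 h. There was 36.3, 38.9 and 41.8% left in the 8 h libraries and 25.6, 25.3 and 16.5% in those of 24 h. Its 4 h call (adjusted p = 0.00194) was lost without 4 h replicate 2 (adjusted p = 0.0108). Like Gnl3 and Ppan, Ncl holds snoRNA genes on its own strand, and how their reads were counted is not known here.

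Ratios between related genes among the factors shifted with time. The log2 ratio of the CPM of Gnl3 to that of Gnl3l was 0.60, 0.80 and 0.66 in the 2 h libraries and -1.21, -1.17 and -1.44 in those of 24 h, against 1.67, 1.71 and 1.67 at 0 h. It had changed sign by 4 h (-2.47, -2.18 and -2.21) and was still negative at 24 h, a shift of -2.96 from 0 h. For Rrp1b over Rrp1 the ratio was -3.78, -3.94 and -3.29 at 24 h against -1.12, -1.18 and -1.15 at 0 h, a shift of -2.52. Its shift from 0 h was -1.02 at 2 h and was larger at 4 h (-2.93) and 8 h (-3.09) than at 24 h. That of Gnl3 over Gnl3l was also larger at 4 h (-3.97) and 8 h (-3.59). The ratio of Npm1 to Npm3 was a little above its 0 h value at 2 h, 4 h and 8 h (shifts of 0.24, 0.14 and 0.24) and below it at 24 h (shift -0.91). In each pair and at each of the 4 times the later ratios did not overlap those of 0 h. How often this holds for other pairs of genes was not examined. The exact two-sided permutation test gave p = 0.1 each time, the smallest that 3 against 3 libraries allow, and 0.1 after adjustment over the 12 tests. It therefore could not call any shift or tell the large ones from the small ones. How the counting treated reads that match both genes of a pair is not known here.

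**Figure D4:**
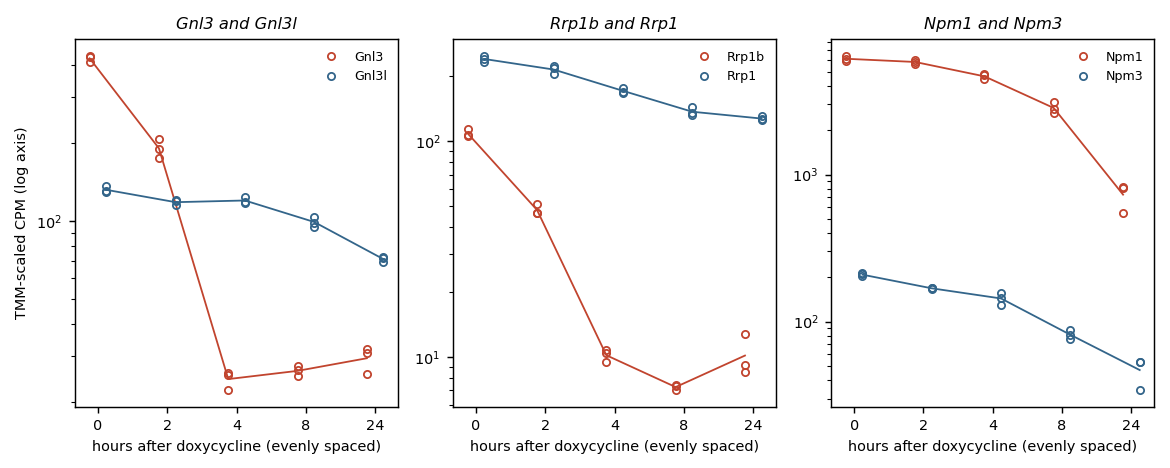
CPM on TMM-scaled library totals (vertical axes, log scale) of Gnl3 and Gnl3l, Rrp1b and Rrp1, and Npm1 and Npm3 against hours after doxycycline (horizontal axes, evenly spaced). Circles are the 3 libraries of a time and lines join their means. Gnl3 lies above Gnl3l at 0 h and 2 h and below it from 4 h on.

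Between 8 h and 24 h the factors no longer moved together. At 24 h 11 were higher than at 8 h, when 20.8% of all tested genes were, and 8 were lower (17.3% of all), with a median log2 fold change of -0.032. Both shares lie near those of all genes. The 11 were Mdn1, Urb1, Nol9, Ddx31, Noc2l, Bop1, Rrp1b, Ddx21, Urb2, Ddx27 and Ppan, and all of them stayed below 0 h. The 8 that fell further were Npm1, Wdr12, Npm3, Rrp15, Gnl3l, Pes1, Rsl1d1 and Ftsj3. Npm1 fell most (log2 fold change -1.96 ± 0.13, adjusted p = 1.80e-08), with 13.3, 13.5 and 8.95% of the 0 h mean in the 24 h libraries against 42.6, 45.4 and 50.8% in those of 8 h. Without 24 h replicate 3 its log2 fold change was -1.79 (adjusted p = 5.59e-14).

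The largest rises were those of Mdn1 and Urb1, and both were smaller without 24 h replicate 3. Mdn1 held 8.72, 10.7 and 17.0% at 24 h against 6.90, 6.55 and 5.11% at 8 h, a log2 fold change of 0.97 with that library and of 0.65 without it (adjusted p = 0.00123 and 0.00150). Urb1 held 25.4, 29.3 and 44.7% at 24 h against 18.9, 15.8 and 17.9% at 8 h, with log2 fold changes of 0.92 and 0.64 (adjusted p = 3.10e-04 and 3.12e-05). Without replicate 3, 14 factors were higher and 9 lower, as were 21.1% and 17.9% of all tested genes. On the log2 scale Nol9 rose by 0.59, Ddx31 by 0.51, Noc2l by 0.51, Bop1 by 0.49, Ddx21 by 0.39 and Ddx27 by 0.25. These 6 were called in each fit with 1 library left out. With only 8 h and 24 h fitted, all of the 6 but Bop1 lost the call (adjusted p from 0.0152 to 0.0657). So did Mdn1 and Urb1 (adjusted p = 0.0270 and 0.0178).

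Other calls of this step were lost when 1 library was left out. Those of Ppan (log2 fold change 0.20, adjusted p = 0.00895) and Rsl1d1 (-0.39, adjusted p = 0.00838) were lost in 15 and 12 of those 15 fits (adjusted p at most 0.0310 and 0.0384). That of Rrp1b (0.49) was lost without each 8 h library (adjusted p at most 0.0147) and without 24 h replicate 3 (log2 fold change 0.28, adjusted p = 0.0144). Urb2 (0.31) lost its call without 8 h replicate 2 or 3 (adjusted p = 0.0189 and 0.0208), and Ftsj3 (-0.36) without 8 h replicate 1 (adjusted p = 0.0122). With only 8 h and 24 h fitted 1 factor, Bop1, was higher and 4 were lower, beside 5.57% and 8.20% of all tested genes. With library totals 17 were higher and 6 lower, beside 32.0% and 11.0% of all.

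**Figure D5:**
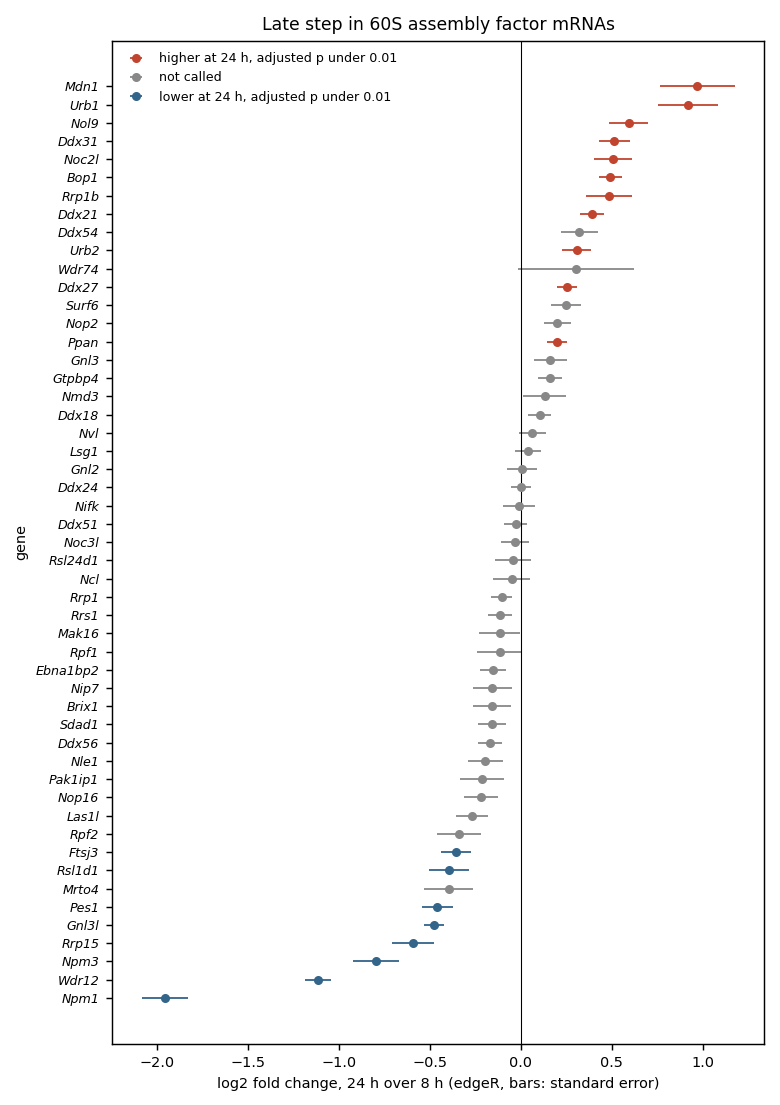
Log2 fold change at 24 h over 8 h (horizontal axis, edgeR, with bars for the standard error) for each factor (vertical axis). The 11 called higher, in red, reach 0.97 in Mdn1, and the 8 called lower, in blue, reach -1.96 in Npm1.

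A further 30 genes of 60S assembly outside the 51, all of them tested, also fell. Of these 17 were lower than at 0 h by 2 h, 27 by 4 h, 28 by 8 h and 30 by 24 h, and none was higher. Of all tested genes 8.59%, 19.9%, 25.1% and 28.1% were lower at these times. Their median log2 fold changes were -0.38, -0.86, -1.15 and -1.09 in this order of times, and the difference from the 51 was not tested. The largest falls at 24 h were those of Mybbp1a, a nucleolar Myb-binding protein, Tma16, whose yeast relative binds pre-60S particles, Wdr18, a subunit of a complex that acts on late nuclear particles, and Wdr55, a nucleolar WD-repeat protein. Mybbp1a measured 35.9, 40.5 and 36.8 CPM at 24 h against 744, 716 and 728 CPM at 0 h. Its 24 h mean was 5.17% ± 0.337 (SD, n = 3) of 0 h (log2 fold change -4.27 ± 0.080, adjusted p = 2.69e-15). Tma16, Wdr18 and Wdr55 ended at 16.8%, 20.7% and 21.3% of 0 h.

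The 51 genes lie on 18 chromosomes, 2 of them on X. Of the 51, 22 overlap any annotated gene. On the other strand 17 do, among them Gnl3, Rrp1b, Bop1, Wdr12, Pes1, Gnl3l and Pak1ip1. Whether the counting used strand is not stated in the sources used, and without it reads of such a pair cannot be told apart. Urb2 and Rsl24d1 each overlap a protein-coding gene on their own strand, where strand does not separate the reads.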

How the data were processed

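PolyA RNA-seq libraries were grouped by time as labelled. For each library the authors deposited raw counts per gene (the only values tested) and TPM and FPKM, and here the deposited TPM served only for levels per length and as another scale, while FPKM was not used. Tools listed by the submitters' processing notes are cutadapt 1.16, STAR 2.5.4b and featureCounts, with the build mm10. Of the annotation release and strand setting, the sources used here say nothing. The counts were tested with edgeR 4.0.16 (R 4.3.3, limma 3.58.1): filterByExpr over the 5 times, TMM, glmQLFit with 1 mean per time over 15 libraries, glmQLFTest for 2, 4, 8 and 24 h against 0 h and for each step, and Benjamini-Hochberg adjustment over 14485 genes with calls at an adjusted p under 0.01. Standard errors are the log2 fold change divided by the square root of F. Levels are CPM on TMM-scaled totals as a percent of the gene's 0 h mean, and speed is the rank of the log2 fold change at 2 h and depth that of the lowest mean. Ratios of related genes were compared by exact permutation. A count of 0 allows up to 3 counts, or on TMM-scaled totals 0.1002 to 0.119 CPM, for counting error only. Gene positions come from GENCODE M21 on GRCm38, to which 53274 of 53379 gene IDs matched (105 did not), and promoters from RefSeq's table on GRCm38.p6. Motifs were searched on both strands of the first listed promoter of each gene. The fit was also run on simulated data with few changed genes and no outlying library, unlike these data, and no result here rests on it. The members, the role groups, the list of 30 other genes and the tests were chosen with earlier results of these data known. All 51 members may be named; of the other list, the 4 with the largest called fall at 24 h are. The alternatives were RLE, library totals and upper-quartile factors, other low-count filters, DESeq2 1.42.0, fitting only the times compared, an adjusted p under 0.05, the replicate number as a block, leaving out each library, and deposited TPM or library totals for levels.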

Additional observations from a re-analysis of the deposited data

How the results depend on the processing

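Counts of factors called lower stayed within 1.5 times of those given in all alternatives for 2, 4, 8 and 24 h against 0 h and for the steps up to 8 h, and no factor was called higher in any of these comparisons. The median log2 fold change at 2 h was -0.61 with RLE and -0.61 with DESeq2, -0.52 with library totals and -0.53 after upper-quartile scaling. With upper-quartile factors it was -1.33 for 4 h, -1.71 for 8 h, -1.94 for 24 h and -0.83 for 4 h against 2 h. At 8 h it was -1.91 with RLE, -1.91 with DESeq2 and -1.76 with library totals, which gave -1.81 at 24 h. Without 1 library the median ran from -1.92 to -1.86 at 8 h and from -0.060 to 0.020 for 24 h against 8 h, the last value without 24 h replicate 3. For 24 h against 8 h, fitting only these times called 4 lower and 1 higher, and library totals 17 higher with a median of 0.13. The lowest mean fell at 8 h for 30 and at 24 h for 15 factors with CPM on library totals, and for 35 and 10 with TPM, and the median lowest level was 25.6% and 26.2% of 0 h. The cause of these shifts was not tested. E-boxes lay in 19 promoters as CANGTG and in 17 as CACGCG, a search added after the data were seen. In the comparisons with 0 h and the called steps, Pak1ip1 alone changed sign: at 2 h to 0.013 with library totals and 0.0038 by upper-quartile scaling, with -0.081 to 0.00065 over the fits without 1 library (the last without 2 h replicate 3), and at 4 h to 0.027 with upper-quartile factors, none of them called. Over the single factors in these comparisons, 177 results fell below the threshold, 50 passed it only in an alternative and 6849 stayed on their side. In the steps, the 62 factor and step pairs that were not called gave 1488 further results, of which 60 were called and 76 had the other sign, none of these called.

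The replicate numbers did not pair the libraries: same-numbered libraries of different times correlated from -0.60 to 0.54 in their deviations, over 0.1 in 13 of 30 pairs, and 5 of 15 libraries correlated best with their own number. With the replicate number as a block, 38 factors were lower by 2 h, 47 by 4 h, 50 by 8 h and 51 by 24 h. Of the 14485 tested genes 1063, 2734, 3494 and 3956 were lower at these times. For 4 h against 2 h 45 factors were lower (1705 of all tested genes), and for 8 h against 4 h 24 were (870). At 24 h 7 were lower than at 8 h (2276 of all) and 10 higher (2697), shares near those of all genes.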
